A study of Mus musculus with 4 samples.

Results

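The replication-dependent histone genes were taken as every feature whose symbol starts with Hist1h, Hist2h or Hist3h, which gave 66 members among 32286 features. By symbol, 6 encode the linker histone H1, 18 encode H2A, 18 encode H2B, 12 encode H3 and 12 encode H4. Their RNA was counted in single cells from skeletal muscle of a mouse model of Duchenne muscular dystrophy (DMD). The 4 libraries were LNP-CRISPR in the bulk isolation, Vehicle in the bulk isolation, LNP-CRISPR after a satellite cell isolation kit and Vehicle after the same kit. LNP-CRISPR stands for lipid nanoparticles that carry CRISPR components, and Vehicle is its control. All 4 came from the DMD model, with no library of healthy muscle analysed here. Strain, age, sex, dose and time after treatment are not given in the sources used here, nor is the number of animals behind a library. There was 1 library per group, so no difference between groups could be tested, and every interval given is an exact 95% interval that covers counting error only.

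Replication-dependent histone genes supply the histones that package newly copied DNA, and a cell transcribes them mainly while it replicates its genome. Their mRNAs are short and without introns, and they usually end in a conserved stem-loop instead of a poly(A) tail. The stem-loop is bound by the stem-loop binding protein Slbp, and histone mRNA is degraded when DNA synthesis ends. The libraries were primed with oligo(dT), so a read counts a molecule that carries a poly(A) tail or was primed at another run of A. The counts are therefore not a measure of all histone mRNA in a cell. In muscle, satellite cells are the resident stem cells, marked by Pax7, which divide as myoblasts after injury and then fuse into fibres.

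The authors' matrices held 6512 barcodes, of which 838 failed a filter of at least 200 genes and at most 20% mitochondrial UMIs and 23 were called doublets. A UMI is a molecular identifier that counts 1 captured RNA molecule once. The kept cells numbered 1149 in LNP-CRISPR bulk, 1199 in Vehicle bulk, 1899 in LNP-CRISPR kit and 1404 in Vehicle kit, with median depths of 8627 to 22270 UMIs per cell. The doublet caller marked 0.405% of cells and is treated as not having worked, so the cells described below may include doublets. The added Cas9 feature had 36382 UMIs in LNP-CRISPR bulk and 10351 in LNP-CRISPR kit, against 0 in both Vehicle libraries. Between pairs of libraries 0 to 3 barcodes were shared, 6 in all. Cells of the satellite or myoblast-like class made up 31.2% of LNP-CRISPR kit cells and 36.5% of Vehicle kit cells, and the rest of the kit libraries was mostly glial-like, fibre-like and pericyte or smooth muscle-like. That class was named from Pax7, Myf5, Myod1, Myog and 8 further markers. Of these, Pax7 had 1508 UMIs in the class in LNP-CRISPR kit and 1246 UMIs in Vehicle kit.

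The members lie in 3 clusters of the GRCm38 mouse genome, with 54 on chromosome 13 between positions 21715763 and 23934851, 10 on chromosome 3 between 96219865 and 96270132, and 2 on chromosome 11 between 58948920 and 58956830. The annotated transcripts of 45 members contained the histone stem-loop after the stop codon. Of the 21 without a match, 13 had no annotated base after the stop codon, so their ends could not be read. The commonest 16-base stem-loop was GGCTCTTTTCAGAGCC, found in 26 members of classes H1, H2A, H2B and H3. The form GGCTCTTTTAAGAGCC was found in 6 members and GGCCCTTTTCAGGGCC in 6, all of which encode H4. The ends of members with many UMIs are printed because this is the part of the mRNA that replaces a poly(A) tail. Each sequence is the coding strand of the transcript from 5′ to 3′, and capitals mark the stem-loop.

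Hist1h2ap: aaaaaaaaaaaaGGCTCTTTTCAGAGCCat
Hist1h2ae: aaaaaaaacaaaGGCTCTTTTCAGAGCCat
Hist1h2ab: aaccaaaacaaaGGCTCTTTTCAGAGCCac
Hist1h1e: caacaacccaaaGGCTCTTTTCAGAGCCac
Hist1h1c: aacaatccaaaaGGCTCTTTTCAGAGCCac
Hist2h2ac: cgaatccaaaaaGGCTCTTTTTAGAGCCac
Hist1h3c: tatttaaaaaaaGGCTCTTTTAAGAGCCac
Hist1h4d: ccaaaaaccaaaGGCCCTTTTCAGGGCCac
Hist1h4h: tacaaaaccaaaGGCCCTTTTCAGGGCCgc
Hist1h4i: atgctacttaaaGGCCCTTTTTAGGGCCac
Hist3h2a: acagacaccaaaGGCTCTTTTCAGAGCCac

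These ends lie in the annotated 3′ UTRs of their genes, for example at chr13:21833027-21833056 on the minus strand for Hist1h2ap, chr13:23570666-23570695 on the minus strand for Hist1h2ae and chr13:23581938-23581967 on the plus strand for Hist1h4d. The stretch of A before the stem-loop differed between members. It was 12 A long in Hist1h2ap and 8 A long in Hist1h2ae. The paralog Hist1h2ao has the same 30 bases as Hist1h2ap, yet it had 18 UMIs in the kept cells against 27061 for Hist1h2ap. Only 7.63% of 90-base windows of Hist1h2ap were unique to it, so the split of reads between these near-identical genes is uncertain. In 27 of the 66 members under 50% of windows were unique, whereas all windows of Hist1h1b and 5 others were.

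Promoters were available for 61 members (62 promoters, RefSeq, GRCm38.p6), each from 250 bases before to 50 after the start. CCAAT on either strand was found in 87.1% of them, against 37.4% of 32851 promoters in the same table. The letters TATAAA were found in 56.5%, against 13.6% of all, and the octamer ATTTGCAT in 22.6%, against 1.74% of all. The octamer was in 7 H2A and 7 H2B promoters and in 0 of the H1, H3 and H4 promoters. AAACACA, known as the H1 box, was in 5 of 6 H1 promoters and in 7.18% of all promoters. CCAAT was in 3 of 11 H4 promoters. These matches describe letters and are not evidence that a factor binds. The H1 promoters of Hist1h1b (chr13:21780626-21780775, minus strand) and Hist1h1c (chr13:23738657-23738806, plus strand) are printed because these 2 members of the same class behaved differently below. The third, of Hist1h2bg (chr13:23571250-23571399, plus strand), shows the stretch that it shares with the oppositely oriented Hist1h2ae. Capitals mark the matched letters on either strand.

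Hist1h1b: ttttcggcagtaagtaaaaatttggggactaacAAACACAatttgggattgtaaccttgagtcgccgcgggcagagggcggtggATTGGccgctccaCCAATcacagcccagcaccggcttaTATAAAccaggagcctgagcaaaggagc
Hist1h1c: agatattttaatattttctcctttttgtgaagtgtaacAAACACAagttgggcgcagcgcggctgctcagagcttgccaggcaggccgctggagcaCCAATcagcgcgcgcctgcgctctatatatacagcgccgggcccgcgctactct
Hist1h2bg: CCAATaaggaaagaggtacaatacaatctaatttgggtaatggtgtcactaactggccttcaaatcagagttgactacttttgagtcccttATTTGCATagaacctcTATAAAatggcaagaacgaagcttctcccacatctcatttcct

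In the printed stretches, the H1 box ended 111 bases before the start of Hist1h1b and 106 bases before the start of Hist1h1c. Head-to-head pairs of an H2A and an H2B gene within 300 bases numbered 10. The counts within a pair were often far apart. Hist1h2ae had 21747 UMIs and Hist1h2bg 356 UMIs across a gap of 175 bases. Hist1h2ap had 27061 UMIs and Hist1h2br 563 UMIs across 235 bases, and in Hist1h2ac and Hist1h2bc the H2B gene had more, with 1175 and 8261 UMIs. UMI counts of different genes are not length-scaled levels, and these counts also depend on how each mRNA could be primed.

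The members together had 181864 UMIs in the kept cells. A UMI was found for 64 of the 66, and 2 (Hist1h2ba, a testis H2B, and Hist1h2bq) were at 0 in all 4 libraries. At least 20 UMIs were found for 58 members and at least 1000 for 28, and 61 had a UMI in all 4 libraries. The counts were concentrated in a few genes. Hist1h1b, which encodes linker histone H1.5, had 28347 UMIs (15.6% of the total), and with Hist1h2ap, Hist1h2ae and Hist1h4d (13745 UMIs) it held 50% of all member UMIs. The 12 members with most UMIs held 80.8%. Of the other 6 members under 20 UMIs, Hist1h2ao had 18, the testis linker histone gene Hist1h1t 17, Hist1h3h 16, Hist2h2aa2 15, the testis H2A gene Hist1h2aa 2 and Hist1h4m 1. Hist2h2aa2 and Hist2h3c1 had no window unique to them. By class, H1 held 30% of member UMIs, H2A 37.9%, H2B 10.4%, H3 9.74% and H4 11.9%.

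In UMIs per 1000000 nuclear-encoded UMIs (CPM below), the members summed to 748 CPM (737 to 759) in LNP-CRISPR bulk and 680 CPM (671 to 689) in Vehicle bulk. They summed to 2376 CPM (2360 to 2392) in LNP-CRISPR kit and 2174 CPM (2156 to 2193) in Vehicle kit. Both kit libraries were thus above both bulk libraries. The most counted gene showed the same order, with Hist1h1b at 94.2 CPM in LNP-CRISPR bulk, 87.7 CPM in Vehicle bulk, 389 CPM in LNP-CRISPR kit and 356 CPM in Vehicle kit. Hist1h2ap had 150 CPM in LNP-CRISPR bulk, 97.4 CPM in Vehicle bulk, 366 CPM in LNP-CRISPR kit and 273 CPM in Vehicle kit, and Hist1h2ae had 86.9, 66.7, 273 and 297 CPM in the same libraries. Hist1h4d had 54.1, 62.1, 176 and 158 CPM, and Hist1h3c 23.5, 21.9, 134 and 113 CPM. The difference between isolations was smaller for Hist1h2bc, at 57.1, 63.9, 72 and 86.8 CPM, and for Hist1h1c, at 48.9, 54.3, 78.9 and 82.2 CPM. The isolations also differed in which cells they held, since satellite or myoblast-like cells were 3.13% of LNP-CRISPR bulk and 3.59% of Vehicle bulk cells, against 31.2% and 36.5% in the kit libraries. Of the cells of this class deep enough to be judged, 38.9% in LNP-CRISPR bulk, 37.2% in Vehicle bulk, 42.3% in LNP-CRISPR kit and 34.1% in Vehicle kit carried a cell cycle mark. In fibre-like cells of LNP-CRISPR kit and Vehicle kit those shares were 0.826% and 0%.

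Cells with at least 2000 nuclear-encoded UMIs were divided by marker genes that are not members. The S-phase sum was of Mcm2 to Mcm7, which encode the replicative helicase, and Pcna, which encodes the clamp of the replicating polymerase. The G2/M sum was of Mki67, a proliferation marker, and Top2a, which untangles sister DNA before division. A cell was S-marked at 10 or more S-phase UMIs per 10000 with under 4 for the G2/M sum, G2/M-marked at 4 or more with under 10 for the S-phase sum, both-marked when it reached both, and otherwise carried neither mark. The marks are ranges of 2 sums and not cell types. Within 20% of a cut lay 74 and 71 cells for the S-phase sum in LNP-CRISPR kit and Vehicle kit, and 43 and 37 cells for the G2/M sum. S-marked cells were 3.14% (2.3 to 4.17) of judged LNP-CRISPR kit cells and 3.36% (2.34 to 4.66) of judged Vehicle kit cells.

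Member RNA was highest in both-marked cells. In LNP-CRISPR kit the members summed to 357 CPM in 1173 cells with neither mark, 1260 CPM (1214 to 1308) in 45 S-marked cells, 7315 CPM (7247 to 7384) in 96 both-marked cells and 4663 CPM (4612 to 4714) in 121 G2/M-marked cells. In Vehicle kit they summed to 487 CPM in 821 cells with neither mark, 1341 CPM (1274 to 1410) in 34 S-marked cells, 8117 CPM (8018 to 8217) in 55 both-marked cells and 3046 CPM (3005 to 3088) in 102 G2/M-marked cells. The order was the same in both kit libraries, with S-marked cells nearer to cells with neither mark than to both-marked cells. Medians over cells kept this order, at 335, 452, 6430 and 1737 CPM in LNP-CRISPR kit and at 378, 941, 7338 and 1560 CPM in Vehicle kit for neither, S-marked, both-marked and G2/M-marked cells. The median number of members seen in a cell went with it, at 3, 12, 35.5 and 18 in LNP-CRISPR kit and 3, 11.5, 38 and 22 in Vehicle kit. The groups differed in depth, and the Vehicle kit S-marked cells stood apart with a median of 15848 nuclear-encoded UMIs, against 55604 in both-marked and 61614 in G2/M-marked cells. In LNP-CRISPR kit those medians were 56627, 62779 and 40079 for S-marked, both-marked and G2/M-marked cells. Values with each cell thinned to 2000 UMIs are given beside the comparison of S-marked with G2/M-marked cells.

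**Figure D1:**
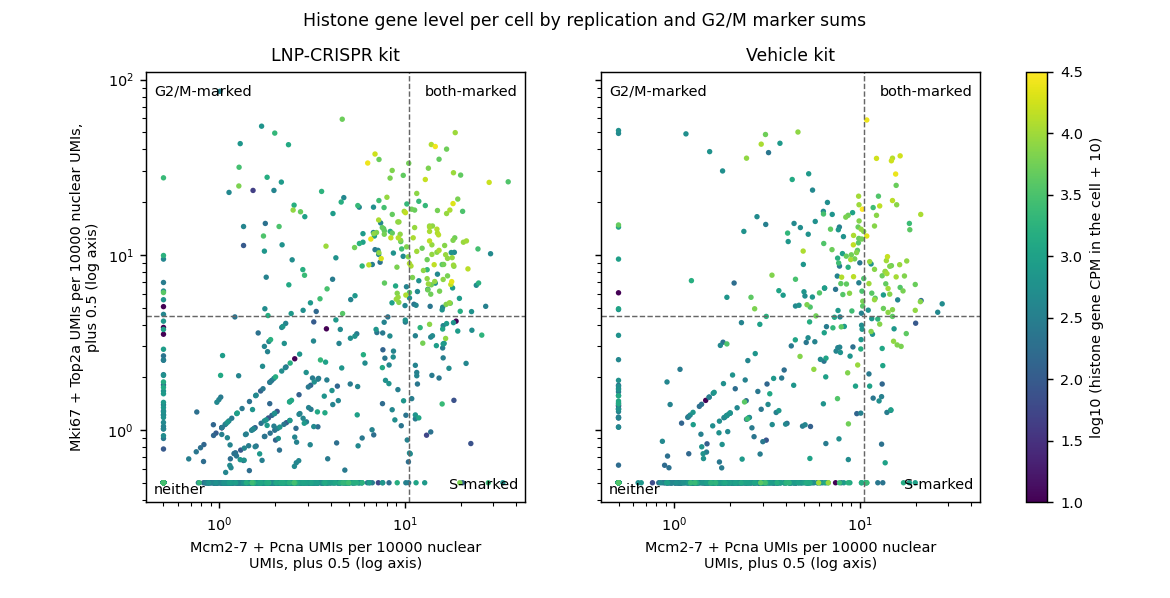
Each point is 1 kit cell with at least 2000 nuclear-encoded UMIs, placed by its S-phase marker sum (horizontal) and its G2/M marker sum (vertical), in UMIs per 10000 on log axes, with LNP-CRISPR kit left of Vehicle kit and colour giving the log10 of the summed member CPM of the cell. The lines mark the cuts of 10 and 4, and the cells to the upper right, where both cuts were reached, have the highest median member level (6430 and 7338 CPM), although the highest single cell of Vehicle kit (37895 CPM) was G2/M-marked.

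S-marked cells had less member RNA than G2/M-marked cells in both kit libraries, and no member was at least 2-fold higher in them. The ratio of summed CPM was 0.27 (0.26 to 0.281) in LNP-CRISPR kit and 0.44 (0.418 to 0.464) in Vehicle kit. In LNP-CRISPR kit 50 members had at least 20 UMIs over both groups of cells, of which 0 were at least 2-fold higher in S-marked cells and 45 at least 2-fold lower, against 1.54% and 8.53% of 10605 genes. In Vehicle kit 46 members reached the minimum, of which 0 were at least 2-fold higher and 33 had a ratio of 0.5 or less, against 5.07% and 5.7% of 10286 genes. Of those 33, 4 were at 0 UMIs in S-marked cells, and with a floor of 3 UMIs over that group none of the 4 was shown to be 2-fold lower. That leaves 29 members at least 2-fold lower, against 5.35% of genes by the same rule. The 1 such member at 0 in LNP-CRISPR kit passed the fold at its floor. The median log2 ratio over the measured members was -1.85 in LNP-CRISPR kit and -1.31 in Vehicle kit, against -0.07 and 0.02 for all genes measured. With members at 0 UMIs in 1 group set to a floor of 3 UMIs for that group, those medians were -1.86 and -1.17. These S-marked sums rested in part on single cells, since 1 cell gave 24% of member UMIs in LNP-CRISPR kit and 44.2% in Vehicle kit. Without the cell with most member UMIs in each group the ratios were 0.221 and 0.276. Thinned to 2000 UMIs per cell they were 0.454 and 0.351, with 8 of 12 and 7 of 10 measurable members at least 2-fold lower. The share of all genes past the fold was not computed for thinned cells, so these 2 counts have no background. With both cuts doubled the Vehicle kit ratio was 0.967 (0.892 to 1.05), from 4 S-marked cells.

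Both-marked cells exceeded S-marked cells for almost every member. The ratio of summed CPM was 5.81 (5.59 to 6.03) in LNP-CRISPR kit, where 51 of 53 measured members were at least 2-fold higher and 0 lower, against 5.2% and 1.67% of all genes. It was 6.05 (5.75 to 6.38) in Vehicle kit, where 39 of 43 were higher and 0 lower, against 4.88% and 3.74% of all genes. Both-marked over G2/M-marked cells gave a smaller ratio, 1.57 (1.55 to 1.59) in LNP-CRISPR kit and 2.66 (2.62 to 2.71) in Vehicle kit. There, 7 of 53 members were at least 2-fold higher and 0 lower in LNP-CRISPR kit, against 1.7% and 4.95% of all genes. In Vehicle kit 35 of 51 were higher and 0 lower, against 3.06% and 2.52% of all genes.

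Against cells with neither mark, the both-marked cells had 20.5 times (20 to 21) the member CPM in LNP-CRISPR kit and 16.7 times (16.2 to 17.1) in Vehicle kit. At least 2-fold higher were 51 of 57 measured members in LNP-CRISPR kit and lower were 2, against 10.3% and 28.3% of all genes. In Vehicle kit 45 of 50 were higher and 1 lower, against 8.67% and 25.5%. The members were thus mostly higher where more genes were lower than higher. Of the cells with neither mark, 340 of 1173 in LNP-CRISPR kit and 326 of 821 in Vehicle kit were satellite or myoblast-like. The shares of all genes may therefore include differences between cell classes, which were not separated here. S-marked over neither gave 3.53 (3.38 to 3.69) in LNP-CRISPR kit, with 29 of 39 members at least 2-fold higher and 4 with a ratio of 0.5 or less, against 8.15% and 30.2% of all genes. It gave 2.75 (2.6 to 2.91) in Vehicle kit, with 24 of 35 higher and 2 with a ratio of 0.5 or less, against 6.79% and 23.1%. These included Hist2h3c1 in LNP-CRISPR kit and Hist2h4 in Vehicle kit, both at 0 UMIs in S-marked cells with a floor above their level in cells with neither mark, so neither was shown to be lower. With genes at 0 taken at that floor, 3 members were at least 2-fold lower in LNP-CRISPR kit, against 26% of all genes. In Vehicle kit 1 member was, Hist3h2ba (at least 2.82-fold), against 18.4% of all genes. Without the cell with most member UMIs in each group, the S-marked over neither ratio was 2.81 in LNP-CRISPR kit and 1.72 in Vehicle kit. G2/M-marked over neither gave 13.1 (12.7 to 13.4) in LNP-CRISPR kit, with 50 of 56 higher and 4 lower, against 8.54% and 25.9%, and 6.25 (6.08 to 6.43) in Vehicle kit, with 44 of 51 higher and 2 lower, against 7.91% and 24.8%. Cells with neither mark held 58.3% of nuclear-encoded UMIs and 8.74% of member UMIs in LNP-CRISPR kit, and 55.8% and 12.5% in Vehicle kit. The marked cells were mostly satellite or myoblast-like, including 96 of 96 both-marked cells in LNP-CRISPR kit and 53 of 55 in Vehicle kit.

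The bulk libraries held fewer marked cells. In LNP-CRISPR bulk the members summed to 197 CPM in cells with neither mark, 515 CPM in 24 S-marked cells, 5519 CPM in 23 both-marked cells and 2350 CPM in 34 G2/M-marked cells. In Vehicle bulk they summed to 234 CPM with neither mark, 342 CPM in 37 S-marked cells, 3530 CPM in 21 both-marked cells and 3354 CPM in 48 G2/M-marked cells. The order of the 4 sums was that of the kit libraries, although both-marked and G2/M-marked cells of Vehicle bulk were close. Single members of Vehicle bulk differed in order. Hist1h2ae had 388 CPM in both-marked and 470 CPM in G2/M-marked cells, and Hist1h1b had 732 and 517 CPM. In LNP-CRISPR bulk 1 cell gave 33.8% of member UMIs in S-marked cells and 1 cell gave 25.7% in G2/M-marked cells. The median G2/M-marked cell there had 297 CPM.

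G2/M-marked cells were not uniform. They were divided into 3 groups of near-equal size by the summed UMIs of 12 genes of later mitosis, a division added after the first values were seen. From low to high, the members summed to 6612, 4945 and 2063 CPM in LNP-CRISPR kit and to 5316, 2810 and 1969 CPM in Vehicle kit. Member CPM was thus lower at each step in both libraries. The S-phase marker sum per 10000 UMIs moved with it, at 7.1, 6.94 and 4.33 in LNP-CRISPR kit and 7.75, 6.86 and 5.46 in Vehicle kit. Single cells gave 20.8% and 24.8% of member UMIs in the groups with most mitotic RNA.

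The 5 histone classes followed the same order of phases. In LNP-CRISPR kit, H1 members summed to 104 CPM in cells with neither mark, 376 CPM in S-marked, 2211 CPM in both-marked and 1400 CPM in G2/M-marked cells. H2A members summed to 69.8, 503, 2997 and 1754 CPM in the same order of groups. The share of H2B stood apart, at 26.7% of member UMIs in cells with neither mark and 8.82%, 7.62% and 7.91% in S-marked, both-marked and G2/M-marked cells. In Vehicle kit H2B held 25.4% in cells with neither mark and 11.4% in S-marked cells.

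Single members are given in LNP-CRISPR kit in the order neither, S-marked, both-marked and G2/M-marked. Hist1h1b, at chr13:21779883-21780625 on the minus strand, had 16.9, 206, 1284 and 823 CPM, from 355, 451, 7659 and 5677 UMIs. Hist1h2ap, an H2A gene at chr13:21833026-21833507, had 18.7, 240, 1244 and 719 CPM. Hist1h2ae, an H2A gene at chr13:23570517-23571220, had 13, 129, 955 and 530 CPM. All 3 had little RNA outside marked cells and were highest in both-marked cells. Hist1h4d, an H4 gene at chr13:23581598-23582735, had 28.6, 90.2, 457 and 417 CPM. Hist1h1e, which encodes linker histone H1.4 and lies at chr13:23620629-23622558, had 33.3, 94.8, 518 and 343 CPM. It overlaps Hist1h2be on the same strand, so reads of the 2 genes may not be told apart. Hist1h3c, an H3 gene at chr13:23744973-23745602, had 9.02, 55.6, 421 and 292 CPM, and Hist1h2ab, an H2A gene, had 4.32, 35.5, 294 and 187 CPM. Hist2h2ac, an H2A gene of the chromosome 3 cluster, had 11.5, 35.1, 225 and 143 CPM, so its order of phases was that of Hist1h1b on chromosome 13. Hist1h3e had 5.46, 16.9, 127 and 79.9 CPM, and Hist1h4h 11.5, 19.6, 98.4 and 71.9 CPM.

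Vehicle kit gave the same pattern for these genes. Hist1h1b had 25.6, 191, 1669 and 463 CPM, from 357, 217, 5261 and 3128 UMIs. Hist1h2ap had 27.9, 201, 1087 and 414 CPM, and Hist1h2ae 32.8, 173, 1285 and 411 CPM. The S-marked over G2/M-marked ratio of Hist1h1b was 0.413 there, against 0.25 in LNP-CRISPR kit. Hist1h4d had 37.3, 81.9, 495 and 264 CPM, and Hist1h1e had 45.9, 100, 548 and 223 CPM. Hist1h3c had 10.4, 64.3, 427 and 187 CPM, and Hist1h2ab 8.61, 38.8, 406 and 139 CPM. Both-marked cells were highest for each of these 7 genes. Hist2h2ac had 13.1, 20.3, 240 and 87.1 CPM, Hist1h3e 8.9, 18.5, 129 and 56.8 CPM, and Hist1h4h 12.6, 21.1, 68.2 and 40.7 CPM.

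The linker histone genes Hist1h1a and Hist1h1d had the same order of phases as Hist1h1b. Hist1h1a, which encodes H1.1, had 2.09, 12.8, 146 and 59.1 CPM in LNP-CRISPR kit and 2.51, 18.5, 151 and 38.6 CPM in Vehicle kit. Hist1h1d, which encodes H1.3, had 2.9, 22.8, 109 and 60.6 CPM in LNP-CRISPR kit and 4.52, 19.4, 121 and 41.9 CPM in Vehicle kit. Of the 28 members with at least 1000 UMIs, 27 were highest in both-marked cells in LNP-CRISPR kit and 26 in Vehicle kit. The exceptions were Hist3h2a, highest in G2/M-marked cells of each, and Hist1h2bc in Vehicle kit, highest in cells with neither mark of all classes together. In satellite or myoblast-like cells with neither mark alone, the Vehicle kit value of Hist1h2bc, given below, was lower than in both-marked cells.

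**Figure D2:**
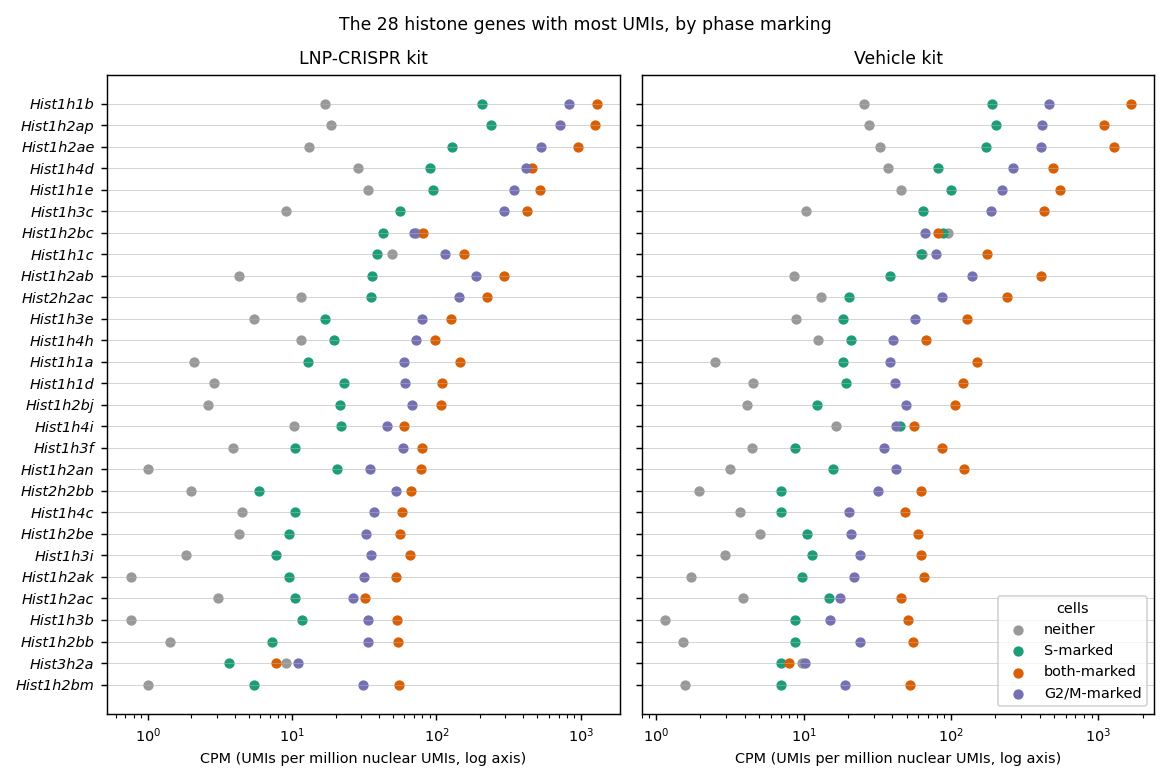
CPM (horizontal log axis) of the 28 members with at least 1000 UMIs in cells with neither mark, S-marked, both-marked and G2/M-marked cells, for LNP-CRISPR kit at the left and Vehicle kit at the right. Most members peak in both-marked cells, with Hist3h2a an exception. Hist1h2bc is at 80.6 and 81.5 CPM in both-marked cells, against 71.8 and 95.5 CPM in cells with neither mark of all classes.

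Hist1h2bc and Hist1h1c, both among the 12 members with most UMIs, differed from the others. Hist1h2bc, an H2B gene at chr13:23684199-23692908 on the plus strand, had 71.8, 42.8, 80.6 and 69.4 CPM in LNP-CRISPR kit and 95.5, 89, 81.5 and 66.3 CPM in Vehicle kit, in the order neither, S-marked, both-marked and G2/M-marked. Its both-marked over neither ratio was 1.12 (1.01 to 1.24) in LNP-CRISPR kit and 0.854 (0.744 to 0.977) in Vehicle kit, where all members together gave 20.5 and 16.7. Hist1h1c, which encodes linker histone H1.2 at chr13:23738808-23740367, had 49.1, 38.7, 154 and 115 CPM in LNP-CRISPR kit and 63.2, 62.6, 175 and 79.6 CPM in Vehicle kit. Hist1h1c was thus no higher in S-marked cells than in all cells with neither mark. The linker histone gene Hist1h1b, shown above, was several-fold higher in S-marked cells. In LNP-CRISPR kit, however, 41 of 45 S-marked cells were satellite or myoblast-like, against 340 of 1173 cells with neither mark. Among those 340 cells Hist1h1c had 33.7 CPM and Hist1h2bc 53.9 CPM, less than in all cells with neither mark. The same held in Vehicle kit, with values given below. The part of class make-up in these ratios was not tested.

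At the low end of the S-marked over G2/M-marked ratio in LNP-CRISPR kit stood 4 rarely counted members. Hist1h2bp, an H2B gene, had 0 UMIs in S-marked cells against 31 in G2/M-marked cells, and was at least 3.29-fold lower with a floor of 3 UMIs over the S-marked group. Hist1h4n had 1 UMI against 44 (ratio 0.0715, 0.00177 to 0.42), Hist1h2bh 2 against 85 (0.074) and Hist1h4k 1 against 39 (0.0806). At the high end stood Hist1h4j with 6 against 18 UMIs (1.05, 0.341 to 2.76), Hist1h2bk with 4 against 18 (0.699), Hist1h2bc with 94 against 479 (0.617, 0.489 to 0.771) and Hist1h2an with 45 against 240 (0.59). The ranking of the rare members is within wide counting intervals, and Hist1h2bc is the member of these 8 with most UMIs.

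In Vehicle kit the low end held 4 members at 0 UMIs in S-marked cells. Hist1h2bf had 30 UMIs in G2/M-marked cells (at least 1.68-fold lower in S-marked cells), Hist1h4n 34 (at least 1.9-fold), Hist1h2bp 25 (at least 1.4-fold) and Hist2h3b 20 (at least 1.12-fold). At the high end stood Hist1h3a with 10 against 44 UMIs (1.35, 0.607 to 2.73), Hist1h2bc with 101 against 448 (1.34, 1.07 to 1.67), Hist1h4a with 15 against 80 (1.12) and Hist1h4i with 51 against 289 (1.05, 0.765 to 1.42). Hist1h2bc was the member found at the high end in both libraries, and Hist1h4n and Hist1h2bp were found at the low end in both.

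A few members had as large a share of their UMIs in cells with neither mark as nuclear-encoded RNA had, which was 58.3% in LNP-CRISPR kit and 55.8% in Vehicle kit. Hist1h2bc had 58.9% of its UMIs there in LNP-CRISPR kit and 62.3% in Vehicle kit, against 2.51% and 3.98% for Hist1h1b. Hist3h2a, an H2A gene on chromosome 11, had 59.8% and 57%, so both genes were near the share of all RNA. Hist3h2ba, the neighbour of Hist3h2a, was above it, at 86.6% and 90.4%. Hist3h2a overlaps Trim17 on the same strand, so its counts are uncertain. Hist2h2be had 75.5% and 51.6% there, Hist2h3c2 79.2% and 77.3%, and Hist2h3c1 81.2% and 76.2%, the last with no window unique to it. Hist1h1c had 36.5% and 43.1%, and Hist1h4i, an H4 gene, 23.3% and 31%. The share of all RNA was exceeded by 6 of 57 members in LNP-CRISPR kit and by 5 of 56 in Vehicle kit, so most members were below it.

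This share was set beside the annotated ends. In LNP-CRISPR kit the 14 members with a poly(A) signal in the last 50 annotated bases had a median of 23.1% of UMIs in cells with neither mark (range 2.75% to 86.6%), and the 43 without had a median of 5.26% (1.23% to 79.2%). In Vehicle kit the medians were 28.2% for 14 members with a signal (6.11% to 90.4%) and 8.57% for 42 without (2.86% to 77.3%). The ranges overlapped over most of their length. Members with no annotated base after the stop codon, among them Hist1h1b, were counted as without a signal. Their ends could not be read, so the difference between the medians may depend in part on the annotation. Hist1h2bc, with 742 annotated bases after its stop codon, had neither a stem-loop match nor a signal in its last 50 bases. Genes that share sequence are counted here as separate points, so no test was made.

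Within cells with neither mark, Hist1h2bc was found in every large class of the kit libraries. It had 197 CPM in fibre-like cells, 152 CPM in glial-like cells, 52.4 CPM in pericyte or smooth muscle-like cells and 53.9 CPM in satellite or myoblast-like cells of LNP-CRISPR kit. The Vehicle kit values were 253, 186, 60.1 and 70.5 CPM in the same classes, so fibre-like cells were highest and glial-like cells next in both libraries. Hist1h1c had 130 CPM in fibre-like, 86 CPM in glial-like, 51.3 CPM in pericyte or smooth muscle-like and 33.7 CPM in satellite or myoblast-like cells of LNP-CRISPR kit, and 102, 76, 66.2 and 56.2 CPM in those of Vehicle kit. Hist1h4i differed between classes in another way, with 46.3 CPM in fibre-like and 2.71 CPM in glial-like cells of LNP-CRISPR kit and 66.6 and 2.92 CPM in those of Vehicle kit. Hist3h2a was the reverse, with 7.31 CPM in fibre-like and 23.7 CPM in glial-like cells of LNP-CRISPR kit and 8.33 and 28.5 CPM in those of Vehicle kit. Hist1h1b had 20.7, 20, 11.9 and 18.5 CPM in fibre-like, glial-like, pericyte or smooth muscle-like and satellite or myoblast-like cells of LNP-CRISPR kit and 9.16, 13.2, 8.13 and 31 CPM in those of Vehicle kit. Hist1h1b in fibre-like cells rested on 17 UMIs in LNP-CRISPR kit and 11 in Vehicle kit.

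**Figure D3:**
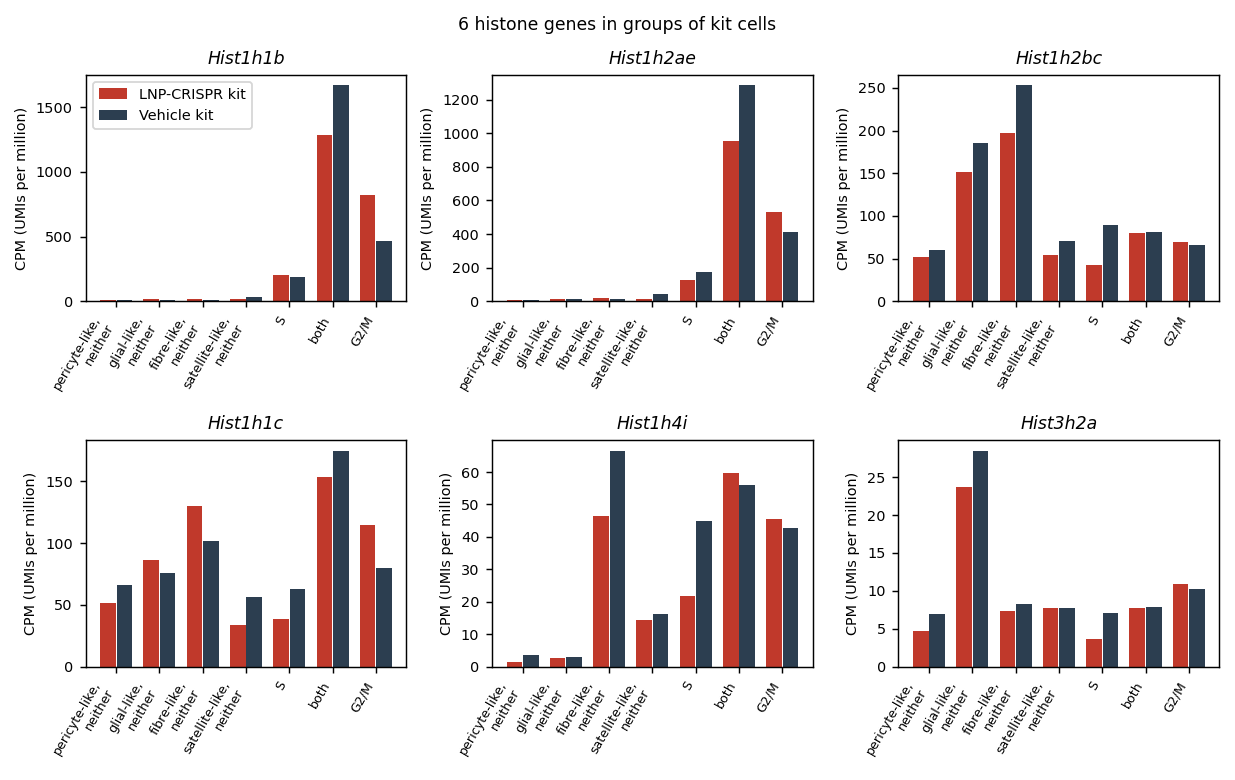
Bars give the CPM of 6 members in LNP-CRISPR kit (left bar) and Vehicle kit (right bar), for cells with neither mark of 4 classes and then for S-marked, both-marked and G2/M-marked cells of all classes. Hist1h1b and Hist1h2ae peak in both-marked cells, Hist1h2bc peaks in fibre-like cells at 197 and 253 CPM, and Hist3h2a peaks in glial-like cells at 23.7 and 28.5 CPM.

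Barcodes under 2000 nuclear-encoded UMIs, which were not given a phase, held member RNA as well. The members summed to 1769 CPM (1648 to 1895) in such barcodes of LNP-CRISPR kit (802 UMIs) and 1689 CPM (1560 to 1825) in those of Vehicle kit (640 UMIs). Hist1h1b was at 225 CPM in these barcodes of LNP-CRISPR kit and 150 CPM in those of Vehicle kit, above its values in deeper cells with neither mark. Their median depth was 863 and 858 nuclear-encoded UMIs.

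Across classes of the kit libraries, member UMIs lay mostly in satellite or myoblast-like cells. In LNP-CRISPR kit this class had 82040 member UMIs in 593 cells (3193 CPM), fibre-like cells had 778 in 290 cells (772 CPM), glial-like cells 1711 in 429 cells (551 CPM), pericyte or smooth muscle-like cells 1551 in 356 cells (281 CPM) and tenocyte-like cells 135 in 39 cells (179 CPM). In Vehicle kit the satellite or myoblast-like class had 51523 member UMIs in 512 cells (2660 CPM), fibre-like cells 911 in 279 cells (665 CPM), glial-like cells 878 in 252 cells (606 CPM), pericyte or smooth muscle-like cells 779 in 171 cells (313 CPM) and tenocyte-like cells 67 in 24 cells (196 CPM). The order of these 5 classes was the same in both libraries. Barcodes of the unnamed clusters had 1544 CPM (1407 to 1691) in LNP-CRISPR kit, below the satellite or myoblast-like class, and 3241 CPM (3039 to 3454) in Vehicle kit, above it. Among cells with neither mark alone, satellite or myoblast-like cells no longer led, with 344 CPM in LNP-CRISPR kit and 497 CPM in Vehicle kit, against 656 and 575 CPM in fibre-like and 522 and 564 CPM in glial-like cells.

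The share of cells with a member UMI was no higher in satellite or myoblast-like than in fibre-like cells at equal depth. Thinned to 2000 UMIs per cell, it was 64.5% (60.5 to 68.4) in satellite or myoblast-like cells of LNP-CRISPR kit and 77.7% (69.2 to 84.8) in fibre-like cells. In Vehicle kit it was 66.3% (61.9 to 70.4) and 71.3% (62.4 to 79.1). Unthinned, it was 98.7% and 84.5% in LNP-CRISPR kit and 96.5% and 79.6% in Vehicle kit, at median depths of 26059 and 1631 UMIs in LNP-CRISPR kit and 19004 and 1658 UMIs in Vehicle kit. Of judged fibre-like cells, 0.826% in LNP-CRISPR kit and 0% in Vehicle kit carried a cell cycle mark. The presence of a member UMI in a cell was therefore not read as a sign of division. Whether fibre-like barcodes held RNA from other cells was not tested. The members counted also differed between the classes, since among cells with neither mark Hist1h2bc gave 15.7% of member UMIs in satellite or myoblast-like and 30.1% in fibre-like cells of LNP-CRISPR kit, and 14.2% and 44.1% in those of Vehicle kit. Thinning left out 4 satellite or myoblast-like and 169 fibre-like cells of LNP-CRISPR kit, and 17 and 157 of Vehicle kit.

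In the bulk libraries the members had 8250 UMIs in 441 FAP-like cells of LNP-CRISPR bulk (552 CPM) and 13745 UMIs in 665 of Vehicle bulk (613 CPM). FAPs are fibro-adipogenic progenitors, the mesenchymal cells of muscle. Macrophage or monocyte-like cells had 1305 UMIs (445 CPM) in LNP-CRISPR bulk and 1220 UMIs (414 CPM) in Vehicle bulk. T or NK-like cells had 465 UMIs (1047 CPM) in LNP-CRISPR bulk, 50.3% of them from 1 cell, and 233 UMIs (1011 CPM) in Vehicle bulk. Dendritic-like cells had 721 UMIs (897 CPM) in LNP-CRISPR bulk, 66.9% of them from 1 cell, and 1998 UMIs (1833 CPM) in Vehicle bulk. Tenocyte-like cells had 337 UMIs (137 CPM) and 537 UMIs (254 CPM), and neutrophil-like cells 126 UMIs (305 CPM) and 37 UMIs (469 CPM), in LNP-CRISPR bulk and Vehicle bulk. Satellite or myoblast-like cells were few, 36 in LNP-CRISPR bulk with 6722 UMIs (4622 CPM) and 43 in Vehicle bulk with 3608 UMIs (1664 CPM). Among FAP-like cells with neither mark the members summed to 161 CPM in LNP-CRISPR bulk and 195 CPM in Vehicle bulk, so unmarked FAP-like cells had less member RNA than the class as a whole.

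**Figure D4:**
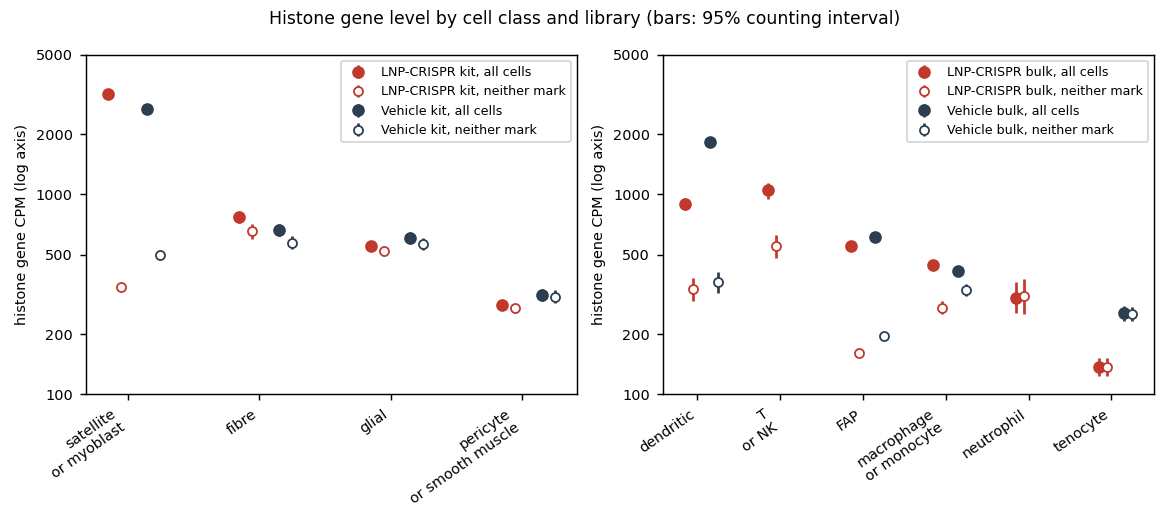
Summed member CPM (log axis) by cell class with exact Poisson 95% intervals, for named classes of at least 50 cells, with filled points for all cells and open points for cells with neither mark, and LNP-CRISPR left of Vehicle in each isolation. Satellite or myoblast-like kit cells lead the named classes at 3193 and 2660 CPM over all cells and lie at 344 and 497 CPM among cells with neither mark.

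Genes that make, process or chaperone histone mRNA and histones were listed beside the members, with 25 of 27 measured. In both-marked over neither cells, 16 of the 25 were at least 2-fold higher and 0 lower in each kit library, and the median log2 ratio was 1.35 in LNP-CRISPR kit and 1.34 in Vehicle kit, against -0.19 and -0.15 for all genes. Slbp had 140 CPM in both-marked and 33.4 CPM in neither-marked cells of LNP-CRISPR kit (4.19-fold, 3.79 to 4.64), and 157 and 32.6 CPM in those of Vehicle kit (4.82-fold, 4.23 to 5.48). Nasp, a chaperone of H3 and H4, had 667 and 131 CPM in LNP-CRISPR kit (5.09-fold) and 604 and 141 CPM in Vehicle kit (4.27-fold). Both genes thus had smaller ratios than the members together. Ccne2, which encodes cyclin E2, gave 21.4-fold and 29.9-fold, Asf1b, another H3 and H4 chaperone, 18.3-fold and 14.2-fold, and Npat, which activates histone genes in S phase, 2.22-fold and 2-fold, in LNP-CRISPR kit and Vehicle kit. Lsm10, a subunit of the U7 particle that cuts histone mRNA, gave 0.945 (0.693 to 1.27) and 1.51 (1.07 to 2.12).

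In S-marked over G2/M-marked cells the list went differently from the members. In LNP-CRISPR kit 3 of 25 were at least 2-fold higher and 1 lower, against 1.54% and 8.53% of all genes. In Vehicle kit 2 of 25 were higher and 1 lower, against 5.07% and 5.35% of all genes, with genes at 0 taken at a floor of 3 UMIs. The Vehicle kit counts were thus near the shares of all genes. The ratio was over 1 for 22 of the 25 and under 1 for 3 in LNP-CRISPR kit, and over 1 for 16 and under 1 for 9 in Vehicle kit. Slbp was at 103 CPM in S-marked and 72.6 CPM in G2/M-marked cells of LNP-CRISPR kit (1.41-fold, 1.2 to 1.66) and at 113 and 60.1 CPM in those of Vehicle kit (1.88-fold, 1.53 to 2.3). Ccne2 was 3.28-fold and 3.52-fold higher in S-marked cells of the 2 libraries. E2f1, a transcription factor of S-phase entry, was 3.38-fold and 1.87-fold higher. Slbp, Ccne2 and E2f1 were thus above 1 where Hist1h1b was at 0.25 and 0.413. Of 18 DNA synthesis genes, 4 in LNP-CRISPR kit and 3 in Vehicle kit were at least 2-fold higher in S-marked cells and 0 lower, and of 12 later mitosis genes 0 were higher and 11 lower in each.

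Replacement histone genes, which mostly make polyadenylated mRNA and are not tied to S phase, behaved unevenly. Of 12 measured, 6 were at least 2-fold higher in both-marked over neither cells in each kit library and 0 lower. Of all genes 10.3% in LNP-CRISPR kit and 8.67% in Vehicle kit were higher. Lower were 28% and 24.7%, with genes at 0 taken at a floor of 3 UMIs. H2afz, which encodes H2A.Z, had 1956 and 556 CPM in both-marked and neither-marked cells of LNP-CRISPR kit (3.52-fold) and 2090 and 709 CPM in those of Vehicle kit (2.95-fold). H2afx, which encodes the damage-marking H2A.X and is known to make also a stem-loop-ended mRNA in S phase, gave 6.08-fold and 5.92-fold. H3f3a, which encodes H3.3, gave 0.986 (0.958 to 1.01) and 1.1 (1.07 to 1.14). In S-marked over G2/M-marked cells H2afx was at 0.317 and 0.336, and Cenpa, the centromeric H3, at 0.429 and 0.437, in LNP-CRISPR kit and Vehicle kit.

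LNP-CRISPR was set against Vehicle within classes and phase groups, where each value compares 2 libraries and cannot be told apart from a difference between animals, preparations or runs. In satellite or myoblast-like kit cells the members summed to 3193 CPM in LNP-CRISPR and 2660 CPM in Vehicle, a ratio of 1.2 (1.19 to 1.21). The median over cells of this class went the other way, at 444 CPM in LNP-CRISPR and 476 CPM in Vehicle. Of 58 measured members 2 were at least 2-fold higher and 0 lower, against 1.25% and 1.42% of 13400 genes. The count of members past 2-fold was thus small and rests on 2 genes. The ratio was over 1 for 46 members and under 1 for 12, with a median log2 of 0.3 against -0.02 for all genes. The class also differed in how many of its judged cells carried a mark, 42.3% in LNP-CRISPR and 34.1% in Vehicle, and the part of that in the ratio was not tested beyond the values by phase below. All 12 later mitosis genes had ratios under 1 in the same cells (median log2 -0.27). The 7 S-phase marker genes all had ratios over 1 there (median log2 0.136). Of 18 DNA synthesis genes 14 were over 1 and 4 under 1 (median log2 0.101).

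The 2 members past 2-fold were Hist1h2br, an H2B gene with 12.8 CPM in LNP-CRISPR and 6.14 CPM in Vehicle (330 and 119 UMIs, ratio 2.09, 1.69 to 2.6), and Hist2h2ab, an H2A gene with 43 and 14 UMIs (2.31, 1.24 to 4.58). Hist1h4j followed with 74 and 32 UMIs (1.74, 1.14 to 2.73). The lowest ratios were of Hist2h2be with 15 and 20 UMIs (0.565, 0.269 to 1.16), Hist1h2ag with 80 and 102 UMIs (0.591, 0.435 to 0.8) and Hist2h3c2 with 10 and 12 UMIs (0.628, 0.243 to 1.59). These 6 were all rare, and the intervals of Hist2h2be and Hist2h3c2 include 1. Among the most counted genes Hist1h1b had 543 CPM in LNP-CRISPR and 456 CPM in Vehicle (1.19), Hist1h2ap 511 and 347 CPM (1.47), Hist1h2ae 381 and 378 CPM (1.01), Hist1h4d 240 and 195 CPM (1.23) and Hist1h2bc 62.6 and 71.9 CPM (0.871). Hist1h2ap shares nearly all its sequence with other genes, so its ratio may include theirs. Only 13.1% of the windows of Hist1h2br were unique to it, so its ratio may likewise include other H2B genes.

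**Figure D5:**
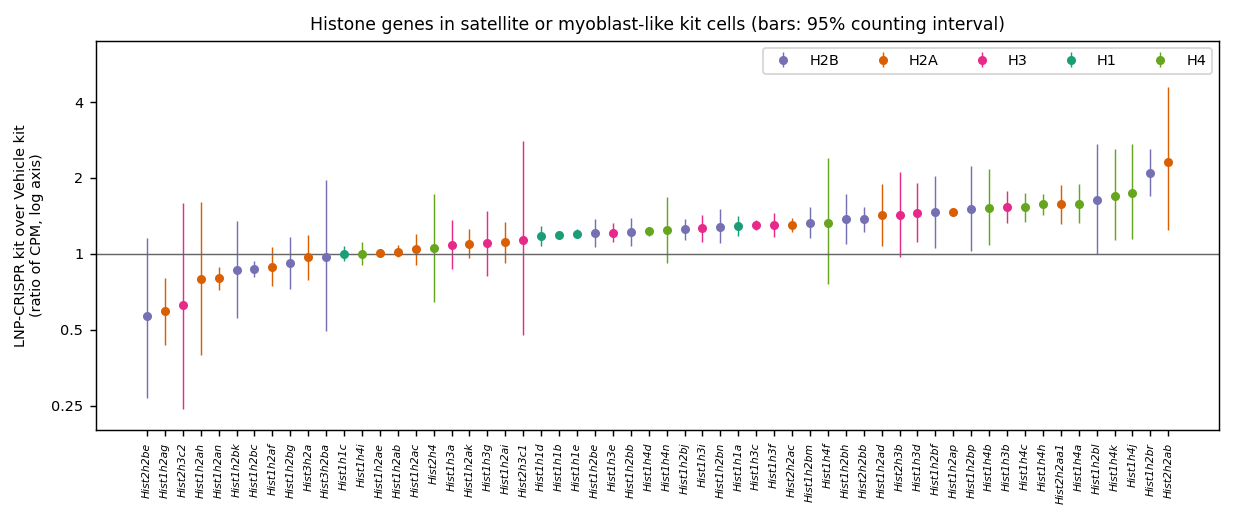
LNP-CRISPR over Vehicle ratio of CPM (log axis) for the 58 measured members in satellite or myoblast-like kit cells, in order of the ratio and coloured by histone class, with exact conditional 95% intervals. Of these members 46 lie above a ratio of 1 and 12 below, and Hist1h2br (2.09) and Hist2h2ab (2.31) lie past 2-fold.

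Within phase groups of the kit libraries the treatment ratio went in both directions. In cells with neither mark it was 0.733 (0.709 to 0.757), with 357 CPM in LNP-CRISPR and 487 CPM in Vehicle. Ratios were also under 1 there for 12 of 12 later mitosis genes (median log2 -0.814) and 16 of 18 DNA synthesis genes (-0.328). The same held for 6 of 7 S-phase marker genes (-0.203) and 2 of 2 G2/M marker genes (-0.501). Cells with neither mark thus differed between the libraries in other cell cycle RNA, and its part in the member ratio was not tested. Of 43 measured members 0 were at least 2-fold higher and 4 lower, against 2.49% and 2.07% of genes. The 4 were Hist1h2ae with 13 CPM in LNP-CRISPR and 32.8 CPM in Vehicle (0.395, 0.339 to 0.46), Hist1h2an with 21 and 44 UMIs (0.316), Hist1h2ak with 16 and 24 UMIs (0.441) and Hist2h4 with 16 and 28 UMIs (0.378). In S-marked cells the ratio was 0.94 (0.882 to 1), with 1260 CPM in LNP-CRISPR and 1341 CPM in Vehicle, and 1.24 without the cell with most member UMIs in each. Of 28 members 0 were higher and 2 lower, against 2.19% and 4.56% of genes. These were Hist1h2bc (42.8 CPM in LNP-CRISPR and 89 CPM in Vehicle, 0.481, 0.36 to 0.644) and Hist1h4i (21.9 and 44.9 CPM, 0.487, 0.321 to 0.737).

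In both-marked cells the ratio was 0.901 (0.887 to 0.915), with 7315 CPM in LNP-CRISPR and 8117 CPM in Vehicle. Of 54 members 0 were at least 2-fold higher and 1 lower, against 1.73% and 2.28% of genes, and that gene was Hist1h2ag (28 and 42 UMIs, 0.352, 0.21 to 0.582). In G2/M-marked cells it was 1.53 (1.5 to 1.56), with 4663 CPM in LNP-CRISPR and 3046 CPM in Vehicle. Of 52 members 5 were at least 2-fold higher and 0 lower, against 3.67% and 1.31% of genes. These 5 were Hist1h3b with 33.5 CPM in LNP-CRISPR and 15.1 CPM in Vehicle (2.22, 1.75 to 2.83), Hist1h2br with 18.7 and 8.43 CPM (2.22), Hist1h3d with 8.99 and 4.29 CPM (2.09), Hist1h4k with 39 and 16 UMIs (2.39) and Hist2h2ab with 18 and 6 UMIs (2.94). The genes of this paragraph and the one before were named for passing the fold, after their values were seen. The G2/M-marked and both-marked ratios moved to the other side of 1 with cells thinned to 2000 UMIs, at 0.904 (0.818 to 0.999) and 1.02 (0.933 to 1.11), and with both cuts halved, at 0.892 and 1.26. In cells with neither mark the ratio was 0.763 without the cells of the unnamed clusters, a setting added after the values were seen.

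In glial-like kit cells the treatment ratio was 0.909 (0.837 to 0.987), with 1 of 17 measured members at least 2-fold higher and 0 lower, against 2.51% and 1% of genes. In pericyte or smooth muscle-like kit cells it was 0.897 (0.822 to 0.979), with 2 of 19 members higher and 2 lower, against 1.73% and 3.09%. In fibre-like kit cells it was 1.16 (1.05 to 1.28), with 3 of 14 higher and 0 lower, against 12.8% and 1.43%. Few members reached 20 UMIs in these classes, so the counts of members describe the more counted genes only. In FAP-like bulk cells it was 0.9 (0.876 to 0.925), with 0 of 44 measured members at least 2-fold higher and 0 lower, against 1.56% and 2.14% of genes. FAP-like cells had the most member UMIs of the bulk classes, and there 12 members were over 1 and 32 under 1.

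The smaller bulk classes gave ratios that rested on fewer UMIs. In macrophage or monocyte-like cells the ratio was 1.07 (0.992 to 1.16), with 1 of 18 members higher and 0 lower against 1.9% and 1.83% of genes, and it was 0.832 without the cell with most member UMIs in each group. Tenocyte-like cells gave 0.54 (0.47 to 0.62), with 137 CPM in LNP-CRISPR and 254 CPM in Vehicle, and 0 of 6 members were higher and 4 lower, against 2.29% and 2.6% of genes. Dendritic-like cells gave 0.49 (0.449 to 0.533), and 0.212 without the top cells, with 0 of 22 members higher and 13 lower, against 3.61% and 5.19%. In these dendritic-like cells the 7 measured later mitosis genes were also at least 2-fold lower. T or NK-like cells gave 1.04 (0.883 to 1.22), and 0.577 without the top cells, with 3 of 8 members higher and 1 lower, against 7.31% and 2.9%. In dendritic-like and T or NK-like cells 1 cell thus set much of the value. Neutrophil-like cells gave 0.65 (0.447 to 0.964), with 0 of 2 members higher and 1 lower, against 9.98% and 7.33%.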

How the data were processed

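Cells of DMD model muscle were profiled in 4 droplet libraries, 1 for each group, with a 10x 3′ kit, per the labels' protocols. The matrices that the authors deposited hold unnormalized UMI counts. The build mm10 and Cell Ranger, at version 7.0.1, are listed in the submitters' processing notes, with no role stated, while the version per the file headers is 5.0.1. Whether counting used strand is not given in the sources used here. No per-sample column was left unused (0).

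Members and gene lists were chosen with earlier results of these data known. Cells had at least 200 genes and at most 20% mitochondrial UMIs. Doublets were called with Scrublet in scanpy 1.11.5 at an expected rate of 5%, and those called were removed. Cells were clustered (2000 variable genes, chosen without the members, Cas9 and the listed cell cycle and histone genes, 30 components, 15 neighbours, Leiden resolution 1) and named "-like" from marker lists. The naming score and its tie rule were chosen after the clusters were seen, so class names are rebuilt ones, and 2 clusters stayed unnamed. Their cells entered library and phase sums only.

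UMIs were summed per group of cells and divided by nuclear-encoded UMIs. Genes needed 20 UMIs over both groups compared. Ratios have exact conditional binomial intervals, levels exact Poisson and shares exact binomial intervals, all at 95% (scipy 1.17.1, numpy 2.4.6, pandas 2.3.3; figures, matplotlib 3.10.9). Limits for a count of 0 used 3 counts. Named members are the 12 with most UMIs, the 4 highest and 4 lowest S-marked over G2/M-marked ratios per kit library and the 3 highest and 3 lowest treatment ratios, and others were named after their values were seen. Annotation was GENCODE M21 (GRCm38), with promoters from RefSeq. The counting script was tested on simulated data. Alternatives were other phase cuts, weights, filters, depth thinning, denominators, minimums and clusterings. No p-value was computed, since cells are not replicates.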

Additional observations from a re-analysis of the deposited data

Results flagged for a closer look

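The LNP-CRISPR over Vehicle ratio of summed member CPM in kit cells was 0.733 in cells with neither mark and 1.53 in G2/M-marked cells. It drew attention because the 2 groups of cells lay on opposite sides of 1. The difference was not tested, with 1 library per group. In cells with neither mark 12 of 12 later mitosis genes and 16 of 18 DNA synthesis genes were also under 1. The ratio in G2/M-marked cells lay on the other side of 1 under some processing choices, while that in cells with neither mark stayed below 1 in each choice tried.

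Barcodes of the unnamed clusters, which enter no comparison within a class, had 1544 CPM of member RNA in LNP-CRISPR kit (465 UMIs in 173 barcodes) and 3241 CPM in Vehicle kit (952 UMIs in 160 barcodes). Their median depths were 716 and 840 nuclear-encoded UMIs, and the 19 and 43 of them with at least 2000 UMIs entered the phase groups. Of these judged barcodes 31.6% and 44.2% carried a cell cycle mark, against 0.826% and 0% of judged fibre-like cells. The unnamed barcodes drew attention as a signal outside the named classes and above fibre-like cells of these libraries, at 772 and 665 CPM. In Vehicle kit they were also above the satellite or myoblast-like class, at 2660 CPM, and in LNP-CRISPR kit below it, at 3193 CPM.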

How the results depend on the processing

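No paired analysis was possible because the labels carry no replicate numbers and each group is 1 library. Limiting cells to at most 100000 nuclear-encoded UMIs, members to the 39 with at least 50% unique windows, and phase groups to cells outside the unnamed clusters, were settings chosen after seeing the data. The ratio stayed on the same side of 1 in each setting tried for the S-marked over G2/M-marked, both-marked over G2/M-marked, both-marked over neither, satellite or myoblast-like treatment and neither-mark treatment ratios, but not for the treatment ratios in G2/M-marked and both-marked cells. With both cuts doubled, however, the intervals of both-marked over G2/M-marked in LNP-CRISPR kit and of S-marked over G2/M-marked in Vehicle kit included 1. The causes of these movements were not tested. The small S-marked groups limit every ratio that uses them. Counts of members past 2-fold are given below without a share of all genes, which was not computed for these settings. Those counts are therefore not read as results about the members.

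With both cuts doubled, S-marked cells numbered 12 in LNP-CRISPR kit and 4 in Vehicle kit and both-marked cells 7 and 1, so each Vehicle kit value for both-marked cells is that of 1 cell. The S-marked over G2/M-marked ratio was then 0.293 (0.269 to 0.317) in LNP-CRISPR kit and 0.967 (0.892 to 1.05) in Vehicle kit, both-marked over G2/M-marked was 1.01 (0.969 to 1.06) and 2.44 (2.27 to 2.61), and both-marked over neither was 6.99 and 9.06. In Vehicle kit 3 members were at least 2-fold higher in S-marked cells and 10 lower, or 3 lower with members at 0 UMIs taken at a floor of 3 UMIs, S-marked cells were 0.836% in LNP-CRISPR kit and 0.395% in Vehicle kit, and LNP-CRISPR over Vehicle was 1.39 in G2/M-marked and 0.579 in both-marked cells. With both cuts halved those 3 ratios were 0.244 and 0.355, 3.45 and 2.44, and 16.5 and 11.4, S-marked shares were 4.39% and 5.43%, and the treatment ratio was 0.892 in G2/M-marked, 1.26 in both-marked and 0.865 in neither cells. With each cell given to its larger phase sum, S-marked over G2/M-marked was 0.396 and 0.644, 13 members were lower in Vehicle kit, the LNP-CRISPR kit S-marked share was 4.39%, and the G2/M-marked treatment ratio was 1.29.

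Thinned to 2000 UMIs, S-marked over G2/M-marked was 0.454 and 0.351 with 8 and 7 members lower, both-marked over G2/M-marked 2.03 and 1.81, both-marked over neither 12.7 and 10.7, and S-marked shares 6.27% and 7.51%. The treatment ratios were then 0.904 in G2/M-marked, 1.02 in both-marked, 0.862 in neither and 1.15 in satellite or myoblast-like cells. With each cell weighing the same, the 3 phase ratios were 0.301 and 0.512, 1.75 and 2.18, and 15.3 and 14.2, and these treatment ratios were 1.07, 0.86, 0.797 and 1.16. With at most 100000 UMIs they were 0.259 and 0.372, 1.42 and 2.17, and 19.6 and 17.8, with 1.28, 0.839, 0.763 and 1.07. Without the cell with most member UMIs, S-marked over G2/M-marked was 0.221 and 0.276, both-marked over G2/M-marked 1.6 in LNP-CRISPR kit, and the treatment ratio 0.929 in both-marked, 0.759 in neither and 1.22 in satellite or myoblast-like cells. With members mostly unique in sequence, S-marked over G2/M-marked was 0.26 and both-marked over G2/M-marked 1.52 in LNP-CRISPR kit, both-marked over neither was 16.8 and 14.4, 29 and 19 members were lower, and the treatment ratio was 0.866 in both-marked and 1.17 in satellite or myoblast-like cells. In satellite or myoblast-like cells alone, both-marked over neither was 21.2 in LNP-CRISPR kit, S-marked shares were 6.96% and 4.85%, and the neither treatment ratio was 0.693. That class's treatment ratio was 1.26 at Leiden resolution 2 and 1.25 with all genes allowed in clustering. Without cells of the unnamed clusters, S-marked over G2/M-marked was 0.415 and both-marked over neither 17.3 in Vehicle kit, and the neither treatment ratio was 0.763.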
